A study of Homo sapiens with 22 samples.

Results

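A set of 40 genes of mitosis and the kinetochore was followed across 22 xenograft tumours. They were grown from H2110 cells, an established line from a human lung adenocarcinoma. The genes were taken by symbol from a table of read counts for 58735 genes; all 40 were present, each in 1 row, and all 40 had enough counts to be tested among 17652 genes. Tumours of about 300 mm³ were dosed by mouth on 3 consecutive days. The groups were RMC-7977 at 10 mg/kg, RMC-4550 at 30 mg/kg, Trametinib at 0.3 mg/kg and Cobimetinib at 3 mg/kg, with 4 tumours each, and Vehicle with 6 tumours. RMC-7977 inhibits the active form of RAS proteins, RMC-4550 inhibits the phosphatase SHP2, which acts upstream of RAS, and the other 2 drugs inhibit the MEK kinases downstream of RAS. All tumours came from the 1 cell line and carry the genotype label WT, so the values describe this line. The sources used here do not give the host or the number of animals. RNA was sequenced as strand-specific libraries of total RNA, and the p-values measure the spread between tumours, which may be technical in part. The question for these genes is whether blocking the RAS pathway for this time changed the transcripts of dividing cells, at 1 dose per drug. The 4 comparisons of a drug with Vehicle share its 6 tumours, so their results are not independent of each other.

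Cells enter mitosis when the kinase CDK1 is activated by cyclin B and the CDC25 phosphatases. Kinetochores, built on centromeres that carry CENPA, then attach chromosomes to the spindle, and the spindle checkpoint holds the anaphase-promoting complex in check until all are attached. Transcripts of these genes peak together in G2 and mitosis, driven by FOXM1 and the MYB-MuvB complex, and are held low in resting cells by the DREAM complex. Their summed level in a tumour is therefore commonly read as a sign of how many cells are cycling, and in bulk RNA fewer dividing cells and less of each transcript per dividing cell cannot be told apart.

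DREAM and MYB-MuvB are known to bind a promoter element called the cell cycle genes homology region. It is most often the hexamer TTTGAA, with TTTAAA as a known variant in some promoters. The factor NF-Y binds the CCAAT box that often lies upstream of it. The promoters of 5 genes that recur in the results are shown so that these elements can be seen: SPC24, KIF20A and TOP2A, the members with the smallest p-values under RMC-7977, CDC20, which recurs in the comparisons between drugs, and MKI67, which had the highest fold change under Cobimetinib. Each is a RefSeq window on GRCh38.p14 that runs from 250 bases before to 50 bases after the annotated start, written 5′ to 3′ along the gene. Capitals mark the matches to these 3 motifs on either strand. TTCAAA is the first hexamer read on the other strand, the variant hexamer reads the same on both, and ATTGG is the CCAAT box on the other strand.
SPC24 promoter, chr19:11155733-11156032, minus strand: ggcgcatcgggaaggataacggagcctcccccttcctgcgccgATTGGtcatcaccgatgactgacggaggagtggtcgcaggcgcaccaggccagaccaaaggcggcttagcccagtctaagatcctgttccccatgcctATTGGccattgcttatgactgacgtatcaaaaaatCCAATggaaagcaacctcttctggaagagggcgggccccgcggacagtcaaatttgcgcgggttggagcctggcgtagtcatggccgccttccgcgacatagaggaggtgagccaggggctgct
KIF20A promoter, chr5:138178862-138179161, plus strand: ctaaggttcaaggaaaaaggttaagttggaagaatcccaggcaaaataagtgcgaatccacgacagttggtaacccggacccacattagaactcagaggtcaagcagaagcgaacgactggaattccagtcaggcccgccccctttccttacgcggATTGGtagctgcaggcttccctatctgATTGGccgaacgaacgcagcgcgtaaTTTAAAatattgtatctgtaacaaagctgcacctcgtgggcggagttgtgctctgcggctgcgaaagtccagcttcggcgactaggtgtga
TOP2A promoter, chr17:40417847-40418146, minus strand: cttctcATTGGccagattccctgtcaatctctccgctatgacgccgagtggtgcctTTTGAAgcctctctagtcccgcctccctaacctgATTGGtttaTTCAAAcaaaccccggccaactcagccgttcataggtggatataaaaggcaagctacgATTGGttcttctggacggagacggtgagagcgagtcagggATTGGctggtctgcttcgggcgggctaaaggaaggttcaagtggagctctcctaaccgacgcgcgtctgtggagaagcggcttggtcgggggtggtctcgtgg
CDC20 promoter, chr1:43358731-43359030, plus strand: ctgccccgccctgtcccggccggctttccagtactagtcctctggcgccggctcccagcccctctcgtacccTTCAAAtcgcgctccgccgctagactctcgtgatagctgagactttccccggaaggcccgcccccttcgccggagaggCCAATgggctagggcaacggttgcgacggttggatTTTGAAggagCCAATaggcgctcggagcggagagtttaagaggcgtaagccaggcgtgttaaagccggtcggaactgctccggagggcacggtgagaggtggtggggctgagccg
MKI67 promoter, chr10:128126374-128126673, minus strand: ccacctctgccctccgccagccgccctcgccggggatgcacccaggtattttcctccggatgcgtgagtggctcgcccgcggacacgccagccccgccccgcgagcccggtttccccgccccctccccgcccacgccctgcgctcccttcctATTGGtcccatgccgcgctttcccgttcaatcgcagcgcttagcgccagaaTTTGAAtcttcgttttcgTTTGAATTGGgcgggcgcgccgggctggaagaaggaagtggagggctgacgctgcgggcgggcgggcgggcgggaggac

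The SPC24 window held neither hexamer and 3 CCAAT boxes. The KIF20A window held 1 TTTAAA and 2 CCAAT boxes, the TOP2A window 2 TTTGAA and 4 CCAAT boxes, and the CDC20 and MKI67 windows 2 TTTGAA and 2 CCAAT boxes each. In MKI67 the downstream TTTGAA shares 1 base with the CCAAT box that follows it. Windows existed for 33 of the 40 genes, 43 windows in all because 6 genes had more than 1; windows of the same gene can overlap and share a match. TTTGAA was found in 26 of the 43 windows (60.5%), against 15.2% of all 35116 windows in the RefSeq table. TTTAAA was found in 14 of the 43 (32.6%), against 12.2% of all windows, and CCAAT in 32 (74.4%), against 34.6%. Either hexamer stood in a window of 29 genes, and the 4 with neither were AURKB, BUB1, CCNA2 and SPC24. These matches describe the letters in a window and do not show binding. TPX2, TTK, AURKA, BIRC5, FOXM1, BUB3 and UBE2C had no window in the table.

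**Figure D1:**
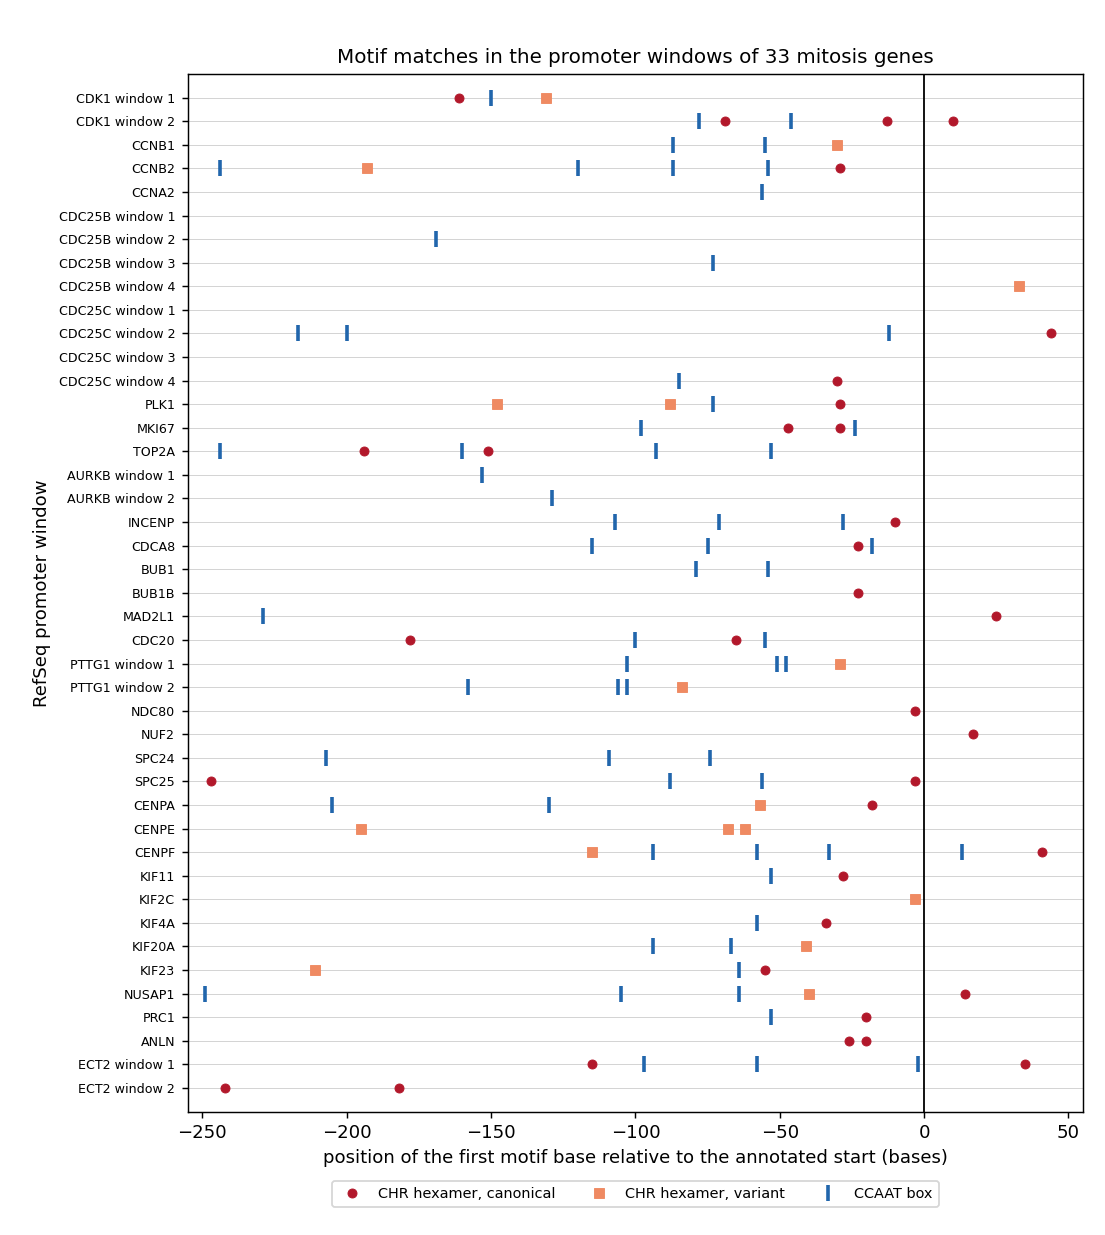
Matches to the 2 hexamers of the cell cycle genes homology region and to the CCAAT box in the 43 RefSeq promoter windows of 33 mitosis genes. The horizontal axis gives the position of the first base of a match relative to the annotated start, in bases, and each line is 1 window; 26 windows hold the canonical hexamer and 32 a CCAAT box.

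Total counts ran from 7761987 to 17265754 per tumour, of which the 40 genes took 0.255% to 0.540%. Trametinib replicate 4, RMC-7977 replicate 3, RMC-4550 replicate 1 and Vehicle replicate 1 stood apart from the rest. In Trametinib replicate 4 only 1.99% of the detected genes had 1 or 2 counts, and in RMC-7977 replicate 3 5.02%, against 13.4% to 22.9% elsewhere. In Trametinib replicate 4 the share of counts from ribosomal protein genes was 25.0%. In RMC-4550 replicate 1 and Vehicle replicate 1 the deviation of all tested genes from the average tumour fell with transcript GC content. The rank correlations across genes were -0.584 and -0.538, against 0.307 to 0.426 in the other 5 Vehicle tumours. They were also negative in RMC-7977 replicate 3 (-0.424), Trametinib replicates 1, 2 and 4 (-0.484, -0.413 and -0.102) and Cobimetinib replicate 3 (-0.231). Trametinib replicates 1 and 2 and Cobimetinib replicate 3 were not counted among the 4 libraries.

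The GC content of the mitosis genes ran from 35.3% in CENPE to 59.6% in INCENP with a median of 45.4%, against 48.3% for all tested genes. In Vehicle replicate 1 the 20 members under 45% GC lay a median of 0.97 above the other Vehicle tumours in log2 CPM (counts per 1000000), and the 20 members at or over 45% GC a median of 0.11 above them. MAD2L1, a checkpoint protein at the kinetochore, lay 1.59 above the other Vehicle tumours in that library, and FOXM1 lay 2.08 below them (a deviation of -2.08). In RMC-7977 replicate 3 the same medians were 0.56 and 0.24. In RMC-4550 replicate 1 they were 0.40 and -0.08. Cobimetinib replicate 3, which did not stand apart otherwise, had 0.35 and -0.18. Results below are given with all 22 tumours, and without the 4 libraries where that changed a call.

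**Figure D2:**
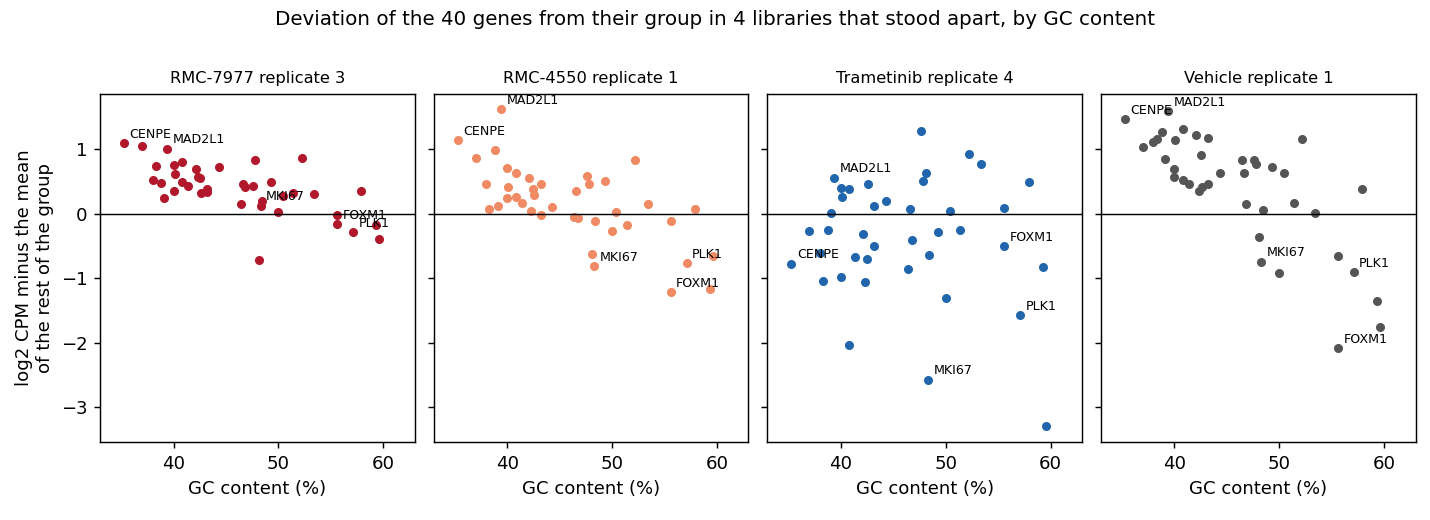
Deviation of each of the 40 genes from the mean of the rest of its group, in log2 CPM, against the GC content of its transcript in percent, for the 4 libraries that stood apart. In Vehicle replicate 1 the genes run from MAD2L1 at 1.59 to FOXM1 at -2.08, and in Trametinib replicate 4 MKI67 lies at -2.57.

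In Vehicle tumours the mitosis genes were expressed well above the typical gene. Their median was 19.4 CPM per kilobase of exon, against 4.06 for all tested genes, and 38 of the 40 lay above that value for all genes. TOP2A, the topoisomerase that untangles chromosomes, stood first at 61.2 ± 19.9 CPM per kilobase (SD, n = 6). CCNB1, which encodes cyclin B1, followed at 54.3 ± 10.4, and then came ECT2 at 49.6 ± 20.5, which activates the contractile ring, PTTG1 at 48.7 ± 12.6, the securin that guards sister chromatids, and CDC20 at 46.0 ± 7.20, an activator of the anaphase-promoting complex. These neighbours did not differ beyond their spread between tumours. At the other end stood SPC25 at 6.10 ± 1.82, NUSAP1 at 4.61 ± 1.01, CDC25C at 3.44 ± 1.08 and PRC1 at 0.285 ± 0.105 CPM per kilobase. Counts of NUSAP1 and PRC1 are uncertain, because 62.2% and 57.6% of their exon bases also belong to another annotated gene on the same strand, AC087721.2 and AC068831.7. FOXM1 and PLK1 share 15.9% and 12.5% of their exon bases with genes on the other strand, and the sources used here do not give the strand setting of the counting.

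Under RMC-7977 most mitosis genes had small negative fold changes against Vehicle, and no single gene passed the test. By the quasi-likelihood test of edgeR, adjusted over all tested genes, 0 of 40 members were called at an adjusted p under 0.05, against 0.748% of all tested genes; 5 members had an unadjusted p under 0.05, all 5 lower, against 5.47% of all genes lower by that rule. DESeq2 called 0 members and 3.12% of all genes. Limma's voom with library weights called 8, FOXM1, TOP2A, AURKB, CDC20, UBE2C, SPC24, SPC25 and KIF20A, all lower, where it called 7.04% of all genes lower. The log2 fold change was negative for 37 of 40 members with a median of -0.22, against 50.7% of all genes and a median of -0.006. The range ran from -0.66 in SPC24 to 0.14 in MKI67. For 35 members the 95% interval lay within a log2 change of 1 either way, as it did for 53.4% of all genes.

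**Figure D3:**
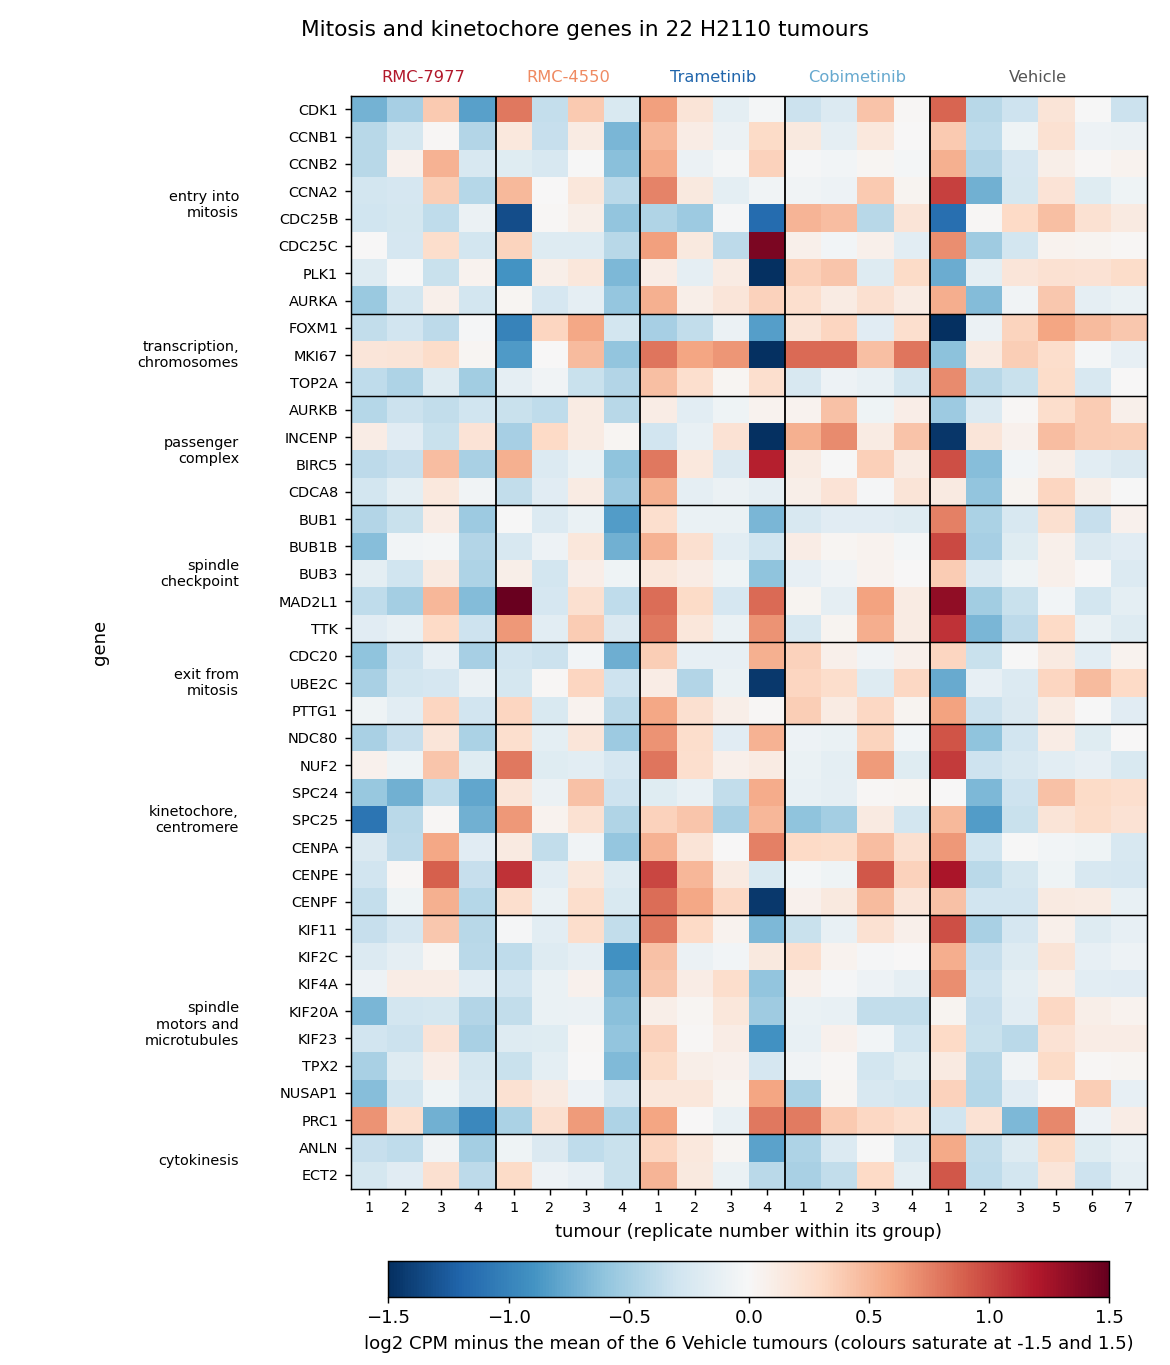
Log2 CPM of the 40 mitosis genes, grouped by role, in each of the 22 tumours, shown as the difference from the mean of the 6 Vehicle tumours (colour, log2 units). Most genes of RMC-7977 replicates 1, 2 and 4 lie below that mean and most of replicate 3 lie above it, and Vehicle replicate 1 holds the highest value of more genes than any other tumour.

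Of the genes that start mitosis, 7 of 8 had a negative fold change under RMC-7977, with a median of -0.25. CDK1, the central mitotic kinase, had 78.0, 90.2, 168 and 73.1 CPM in RMC-7977 tumours, against a lowest, median and highest value of 96.3, 115 and 234 CPM in Vehicle tumours. In 3 of the 4 treated tumours CDK1 lay below all Vehicle tumours, and replicate 3, among the libraries that stood apart, lay inside their range. The log2 fold change of CDK1 was -0.40 ± 0.29 (SE; adjusted p = 0.739 by edgeR). CCNB1 had 103, 114, 139 and 101 CPM in RMC-7977 tumours, against 105, 130 and 180 CPM in Vehicle tumours (-0.28 ± 0.19). Again 2 treated tumours, replicates 1 and 4, lay below all Vehicle tumours. PLK1, a kinase of centrosomes and kinetochores, had 50.8, 57.8, 46.2 and 60.3 CPM in RMC-7977 tumours, against 34.6, 66.7 and 70.3 CPM in Vehicle tumours (-0.15 ± 0.27). AURKA, the kinase of the spindle poles, had 48.5, 59.2, 76.1 and 59.3 CPM in RMC-7977 tumours, against 45.9, 68.3 and 104 CPM in Vehicle tumours (-0.29 ± 0.19). PLK1 and AURKA lay inside the Vehicle range in all 4 treated tumours. CCNB2, the second B-type cyclin, stood at 0.00 ± 0.20 and CCNA2, cyclin A2, at -0.22 ± 0.27. The phosphatase genes CDC25B and CDC25C had -0.34 ± 0.29 and -0.10 ± 0.28.

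The 3 genes of transcription and chromosome structure did not share a direction under RMC-7977. TOP2A had 292, 276, 331 and 265 CPM in RMC-7977 tumours, against 283, 351 and 620 CPM in Vehicle tumours, a log2 fold change of -0.44 ± 0.19 (SE; adjusted p = 0.397 by edgeR). All 4 treated tumours lay below the Vehicle median, 2 of them below every Vehicle tumour. FOXM1, the transcription factor of the G2 and M genes, had 60.1, 64.0, 59.3 and 76.5 CPM in RMC-7977 tumours, against 23.3, 100 and 118 CPM in Vehicle tumours (-0.43 ± 0.32). All 4 treated tumours were above the lowest Vehicle tumour, replicate 1, and below the Vehicle median. MKI67, which encodes the Ki-67 antigen used to count cycling cells, had 402, 405, 428 and 363 CPM in RMC-7977 tumours, against 231, 368 and 459 CPM in Vehicle tumours (0.14 ± 0.34). The treated tumours sat within the Vehicle range and did not share the negative sign of TOP2A and FOXM1.

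The 4 genes of the chromosomal passenger complex, which corrects faulty attachments, all had negative fold changes with a median of -0.19. AURKB, its kinase, had 31.3, 33.6, 32.6 and 34.0 CPM in RMC-7977 tumours, against 28.9, 43.5 and 55.1 CPM in Vehicle tumours (-0.39 ± 0.17, adjusted p = 0.405 by edgeR). The 4 treated tumours were within 3 CPM of each other and below all Vehicle tumours but replicate 1. All 5 checkpoint genes were negative, between -0.35 (BUB1B) and -0.18 (TTK), and all 3 genes of mitotic exit, between -0.39 (CDC20) and -0.07 (PTTG1). CDC20 had 61.0, 74.8, 85.7 and 65.8 CPM in RMC-7977 tumours, against 73.6, 94.3 and 116 CPM in Vehicle tumours, with 2 of 4 below all of them. UBE2C, which attaches ubiquitin for the anaphase-promoting complex, had 35.4 ± 3.97 CPM in RMC-7977 tumours and 44.4 ± 12.8 CPM in Vehicle tumours (SD; -0.33 ± 0.25).

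Kinetochore genes had the widest range of the 8 roles, with a median of -0.05 and 6 of 7 negative. That sign depended on single tumours. Without RMC-7977 replicate 4 or Vehicle replicate 1 only 3 of 7 were negative (medians 0.01 and 0.05). Without RMC-7977 replicate 3 all 7 were (median -0.33). The lowest with all tumours was SPC24, which with SPC25 forms the end of the NDC80 complex that faces the chromosome. SPC24 had 12.4, 11.1, 14.1 and 10.7 CPM in RMC-7977 tumours, against 11.5, 20.2 and 25.0 CPM in Vehicle tumours. Its log2 fold change was -0.66 ± 0.22 (SE; adjusted p = 0.203 by edgeR, the smallest of the 40). The 4 treated tumours were all below the Vehicle median, and Vehicle replicate 2 was as low as they were. SPC25 had 7.59 ± 2.54 CPM in RMC-7977 tumours and 11.2 ± 3.35 CPM in Vehicle tumours (SD; -0.56 ± 0.29). The other pair of the same complex, NDC80 and NUF2, which bind the microtubule, had -0.34 ± 0.25 and -0.02 ± 0.28. CENPA, the histone variant of centromeres, CENPE, a kinetochore motor, and CENPF lay within 0.05 of 0. All 8 spindle genes were negative with a median of -0.21. KIF20A, a motor of the central spindle, had 32.1, 42.8, 42.9 and 37.9 CPM in RMC-7977 tumours, against 40.7, 53.6 and 64.2 CPM in Vehicle tumours (-0.42 ± 0.17, adjusted p = 0.343 by edgeR). The other motors, KIF11, KIF2C, KIF4A and KIF23, lay between -0.23 and -0.04, and ANLN and ECT2 of cytokinesis had -0.35 and -0.21.

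Without the 4 libraries that stood apart, 1 member passed as lower under RMC-7977, SPC24, among 6.38% of all genes called; with a GC correction added to that removal there were 3, CDK1, FOXM1 and ANLN, among 7.80%. The median log2 fold change was then -0.26 and -0.30. Leaving out RMC-7977 replicate 3 alone gave a median of -0.37, and leaving out Vehicle replicate 1 alone gave -0.13 with 25 of 40 members negative; under the replicate block 27 were negative. The 5 members at an unadjusted p under 0.05 became 2 without RMC-7977 replicate 1, 3 without replicate 4, while removal of Vehicle replicate 5 left 1 and removal of Vehicle replicate 2 gave 9.

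**Figure D4:**
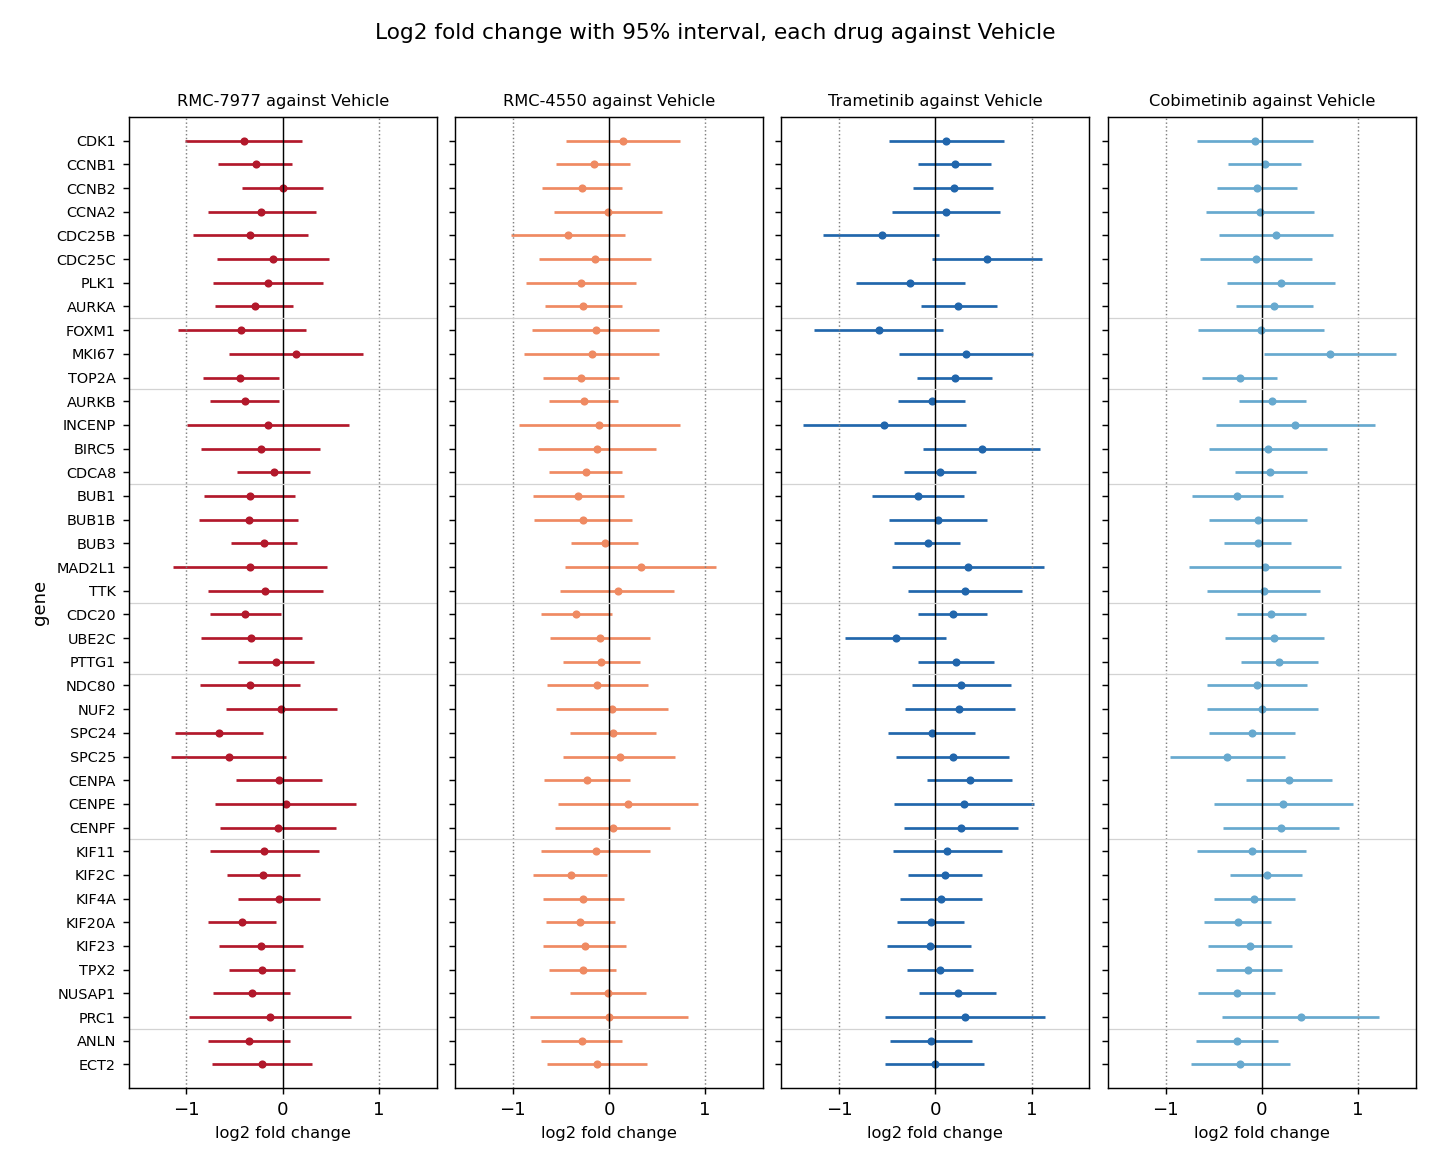
Log2 fold change of each of the 40 genes with its 95% interval, for each drug against Vehicle; dotted lines mark log2 changes of -1 and 1. Points under RMC-7977 lie mostly left of 0 (37 of 40), those under Trametinib mostly right of it (27 of 40), and the intervals overlap 0 for all but 5, 1, 0 and 1 genes in the 4 panels from left to right.

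Under RMC-4550 most fold changes against Vehicle were small and negative, and none of the 40 genes passed the test. By edgeR 0 of 40 members were called, against 0.0283% of all genes; 1 had an unadjusted p under 0.05, KIF2C, as did 1.42% of all genes in the lower direction. DESeq2 and voom with library weights also called 0 members, and 0.203% and 0.640% of all genes. The fold change was negative for 32 of 40 members with a median of -0.14. Of the 95% intervals 38 lay within a log2 change of 1 either way, as for 55.2% of all genes. All 8 spindle motors and microtubule proteins were negative (median -0.26, with PRC1 closest to 0), while 5 of 7 kinetochore genes were positive (median 0.04). That sign of the kinetochore genes was not stable: without RMC-4550 replicate 1 all 7 were negative (median -0.19), and 6 were negative with the GC correction (median -0.09) and without Vehicle replicate 2 (median -0.05). KIF2C, which takes microtubules apart at the centromere, had 53.6, 61.1, 63.9 and 37.1 CPM in RMC-4550 tumours, against 55.3, 65.2 and 101 CPM in Vehicle tumours. Its log2 fold change was -0.40 ± 0.18 (SE; adjusted p = 0.986 by edgeR), with 2 of 4 tumours below all Vehicle tumours. CDC20 had -0.34 ± 0.18 and KIF20A -0.30 ± 0.17, and their groups overlapped Vehicle.

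The 4 RMC-4550 tumours did not move together. CDK1 had 222, 99.4, 168 and 109 CPM in them, CCNB1 154, 108, 149 and 85.8 CPM, and TOP2A 344, 364, 301 and 280 CPM. Replicate 4 was above the rest of its group for 1 of 40 members and replicate 1 was highest for CDK1, a gene of 37% GC. PLK1 had 31.2, 62.2, 65.8 and 36.5 CPM, AURKA 73.4, 60.3, 65.6 and 48.2 CPM, and AURKB 33.5, 32.2, 46.0 and 31.7 CPM in the same tumours. MKI67 had 197, 354, 496 and 235 CPM and FOXM1 38.7, 97.3, 116 and 64.5 CPM, with replicate 1 lowest for both. Replicate 3 was highest for PLK1, AURKB, MKI67 and FOXM1. MAD2L1 had the highest fold change of the 40 under RMC-4550, 0.33 ± 0.38, with 69.7 ± 47.7 CPM in RMC-4550 tumours and 55.6 ± 34.3 CPM in Vehicle tumours (SD); it lay 1.62 above the rest of its group in replicate 1, the library that stood apart. The median over the 40 genes was -0.28 without RMC-4550 replicate 3 and -0.07 without replicate 4, and it was -0.24 with 37 members negative without replicate 1. With Vehicle replicate 2 left out 7 members had an unadjusted p under 0.05, against 3.97% of all genes, with RMC-4550 replicate 3 left out 4, and with Vehicle replicate 1 or Trametinib replicate 4 left out 3. With RMC-4550 replicate 1 or 4 or Vehicle replicate 5 left out 0 did.

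Under Trametinib most kinetochore genes had positive fold changes against Vehicle, without a call by edgeR. By edgeR 0 of 40 members were called, as for 0% of all genes, and 0 members had an unadjusted p under 0.05, although 18.8% of all genes did; without Vehicle replicate 1 the figures were 13 members and 31.6% of all genes. DESeq2 called 0 members and 2.15% of all genes. Voom with library weights called 17 higher, where it called 23.4% of all genes higher, and 4 lower, CDC25B, FOXM1, INCENP and UBE2C, where it called 21.2% of all genes lower; its weight was 8.82 for Trametinib replicate 2 and 0.0529 for replicate 4. The fold change was positive for 27 of 40 members with a median of 0.12, and it ran from -0.59 in FOXM1 to 0.54 in CDC25C. Of the 40 intervals 31 lay within a log2 change of 1 either way, as for 46.2% of all genes. Kinetochore genes were positive in 6 of 7 (median 0.27), with CENPA at 47.1 ± 10.9 CPM in Trametinib tumours and 36.8 ± 9.97 CPM in Vehicle tumours (SD; 0.36 ± 0.21). The kinetochore median was 0.06 without Trametinib replicate 1 and 0.52 without Vehicle replicate 1. The passenger complex split, with BIRC5, survivin, at 0.48 ± 0.29 and INCENP, its scaffold, at -0.53 ± 0.41. Both cytokinesis genes lay near 0.

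The members with the smallest p-values under Trametinib were CDC25B, CDC25C and FOXM1. CDC25B, a phosphatase that activates cyclin-dependent kinases, had 62.1, 58.1, 83.8 and 37.9 CPM in Trametinib tumours, against 38.7, 95.8 and 116 CPM in Vehicle tumours (-0.56 ± 0.29, adjusted p = 0.290 by edgeR). CDC25C, its relative that activates cyclin B with CDK1, had 16.9, 12.2, 8.38 and 29.6 CPM in Trametinib tumours, against 7.57, 11.3 and 18.1 CPM in Vehicle tumours (0.54 ± 0.28, adjusted p = 0.291 by edgeR). FOXM1 had 55.1, 59.8, 72.6 and 44.0 CPM in Trametinib tumours, against 23.3, 100 and 118 CPM in Vehicle tumours (-0.59 ± 0.32, adjusted p = 0.317 by edgeR). The groups overlapped in all 3; replicate 4 held the extreme Trametinib value each time, and Vehicle replicate 1 the lowest CDC25B and FOXM1. The signs of these 2 genes turned under the GC correction with the replicate block, to 0.02 for CDC25B and 0.18 for FOXM1, and under the block alone the values were -0.24 and -0.02.

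Trametinib replicate 4 held extreme values of other members too. MKI67 had 617, 532, 562 and 95.8 CPM in Trametinib tumours, 3 of them above every Vehicle tumour and replicate 4 below every one. PLK1 had 52.9 to 63.6 CPM in replicates 1 to 3 and a log2 CPM of 4.33 in replicate 4, below every Vehicle tumour. AURKB had 45.4, 37.9, 40.3 and 43.8 CPM and AURKA 104, 76.6, 81.7 and 90.9 CPM in the same tumours. CDK1 had 196, 147, 116 and 125 CPM, CCNB1 194, 147, 129 and 168 CPM, and TOP2A 518, 453, 388 and 453 CPM. Apart from CCNB1 in replicate 1, these 3 genes stayed inside the Vehicle range. After removal of the 4 libraries that stood apart, 6 members passed under Trametinib, FOXM1 lower and MAD2L1, NUF2, CENPE, CENPF and KIF11 higher, among 15.1% of all genes. With a GC correction as well, 0 members passed, against 3.47% of all genes; 10 had an unadjusted p under 0.05, against 20.6% of all genes, and the median was 0.14. Leaving out Trametinib replicate 1 alone turned the median to -0.01, and leaving out Vehicle replicate 1 gave 0.26. The rank correlations with GC content were -0.484, -0.413, 0.054 and -0.102 in the 4 Trametinib libraries.

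Under Cobimetinib the mitosis genes as a set were centred on Vehicle. By edgeR 0 of 40 were called, as for 0% of all genes; 1 had an unadjusted p under 0.05, MKI67, which was also the 1 member that voom with library weights called, where it called 1.16% of all genes higher; 0.986% of all genes were higher at that unadjusted p. With DESeq2 0 members and 0.00581% of all genes were called. The fold changes split into 20 negative and 20 positive with a median of 0.00. Of the intervals 37 lay within a log2 change of 1 either way, as for 59.3% of all genes. MKI67 had 640, 639, 483 and 618 CPM in Cobimetinib tumours, against 231, 368 and 459 CPM in Vehicle tumours. All 4 treated tumours lay above all 6 Vehicle tumours, the only member for which the groups did not overlap, as for 0.680% of all genes in that direction. The log2 fold change of MKI67 was 0.71 ± 0.33 (SE; 95% interval 0.02 to 1.40; adjusted p = 1 by edgeR). No member had an unadjusted p under 0.05 without RMC-7977 replicate 3, Cobimetinib replicate 1, 2 or 4, or Vehicle replicate 2, 6 or 7. KIF20A ran from 39.8 to 48.3 CPM in Cobimetinib tumours (-0.25 ± 0.17), and NUSAP1, a microtubule bundling protein, from 9.26 to 13.2 CPM (-0.26 ± 0.19), and both overlapped Vehicle.

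The other regulators of division overlapped Vehicle under Cobimetinib. CDK1 had 103, 111, 172 and 129 CPM, CCNB1 152, 125, 153 and 138 CPM, and TOP2A 322, 359, 351 and 313 CPM. AURKA had 85.5, 77.9, 85.0 and 78.2 CPM, AURKB 43.8, 57.2, 40.3 and 45.1 CPM, PLK1 74.5, 77.9, 51.1 and 71.3 CPM, and FOXM1 89.4, 96.8, 68.8 and 92.7 CPM. PLK1 was above all Vehicle tumours in 3 of 4 tumours, with a fold change of 0.20 ± 0.27, and replicate 3 was the exception. The lowest fold change was that of SPC25, -0.36 ± 0.29, with 8.77 ± 2.14 CPM in Cobimetinib tumours and 11.2 ± 3.35 CPM in Vehicle tumours (SD). TOP2A, which like MKI67 is used as a label of dividing cells, had a fold change of -0.23 ± 0.19 in the same comparison, and the difference between the 2 genes was not tested.

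With the 4 inhibitors together against Vehicle, 0 of 40 members were called by edgeR, against 0.125% of all genes, and 0 had an unadjusted p under 0.05, against 6.12% of all genes. DESeq2 called 0 members and 0.366% of all genes, and voom with library weights 2, CDC25B and FOXM1, both lower, where it called 7.56% of all genes lower. The fold change was negative for 29 members with a median of -0.09, and all 40 intervals lay within a log2 change of 1 either way, as for 69.7% of all genes. Without Vehicle replicate 1, and also under the replicate block, the median turned to 0.05. The mean log2 CPM of the 40 genes was 5.79 ± 0.21 in RMC-7977 tumours and 5.87 ± 0.25 in RMC-4550 tumours. It was 6.06 ± 0.26 with Trametinib, 6.06 ± 0.04 with Cobimetinib and 5.99 ± 0.25 with Vehicle (SD over tumours, n = 4 per drug and 6 for Vehicle). Without the 4 libraries that stood apart the means were 5.69 ± 0.07, 5.83 ± 0.28, 6.15 ± 0.23, 6.06 ± 0.04 and 5.93 ± 0.21 in the same order, and the 3 remaining RMC-7977 tumours, at 5.64 to 5.77, still overlapped Vehicle at 5.63 to 6.20.

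**Figure D5:**
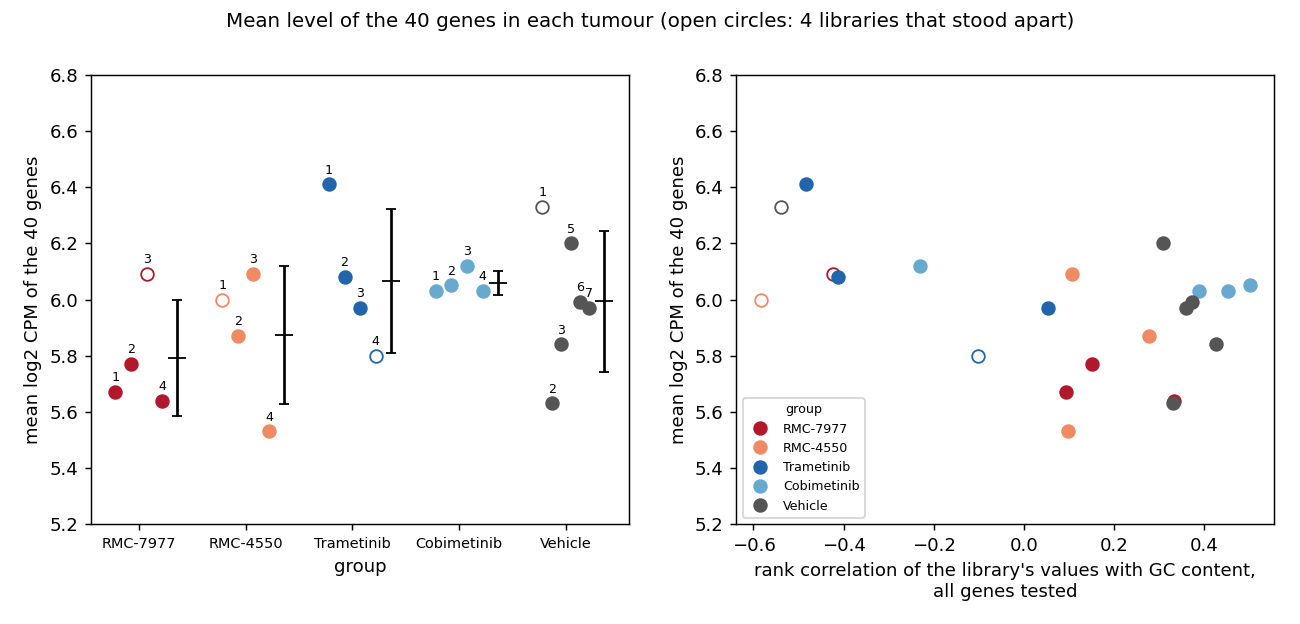
Mean log2 CPM of the 40 genes in each tumour, by group (left; numbers are replicates, the bar gives mean ± SD) and against the rank correlation of that library's values with GC content over all tested genes (right). The 4 RMC-7977 tumours span 5.64 to 6.09 and the 6 Vehicle tumours 5.63 to 6.33, and the 2 highest tumours, Trametinib replicate 1 and Vehicle replicate 1, both have a rank correlation under -0.4.

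Between drugs, most members had negative fold changes for RMC-7977 or RMC-4550 against either MEK inhibitor, again without a call by edgeR. RMC-7977 against Trametinib gave 0 calls of 40, against 0.408% of all genes, with 10 members at an unadjusted p under 0.05, all lower, against 12.1% of all genes lower. The median log2 fold change was -0.32, with 35 of 40 negative. Leaving out Trametinib replicate 1 gave a median of -0.18 and 5 members at that unadjusted p; leaving out RMC-7977 replicate 1 or 4 gave 3 or 5. TOP2A had the smallest p, at -0.64 ± 0.21 (SE; adjusted p = 0.119 by edgeR and 0.0240 by DESeq2, where it was the 1 member called and 4.44% of all genes were called). Voom with library weights called 25 members lower, where it called 13.6% of all genes lower. TOP2A, AURKA, AURKB, SPC24 and NUSAP1 were lower in all 4 RMC-7977 tumours than in any Trametinib tumour, as were 2.92% of all genes. When the 4 libraries that stood apart were left out, 9 members passed as lower, among 5.30% of all genes called, CDK1, TOP2A, BIRC5, MAD2L1, NDC80, CENPE, CENPF, KIF11 and ANLN, and with a GC correction as well 3 did, CDK1, CDC20 and CENPF, among 3.34%. Without Trametinib replicate 3 alone 2 members passed, among 7.07% of all genes.

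RMC-7977 against Cobimetinib gave 0 calls, against 0.278% of all genes, with 3 members at an unadjusted p under 0.05, all lower, against 3.16% of all genes lower. The median was -0.25 and 37 of 40 were negative; without RMC-7977 replicate 3 it was -0.38, with 6 members at that unadjusted p. AURKA, AURKB, MKI67, BUB1B, CDC20 and SPC24 did not overlap between the groups, all lower under RMC-7977, as were 4.73% of all genes. The smallest adjusted p was that of AURKB, 0.406, with a log2 fold change of -0.50 ± 0.19 by edgeR. DESeq2 called 0 members and 1.65% of all genes, and voom with library weights 7, all lower, where it called 3.42% of all genes lower. Without the 4 libraries that stood apart 2 passed as lower, CDC20 and CENPA, among 3.79% of all genes, and with a GC correction as well 5, CDK1, MAD2L1, CENPA, CENPE and CENPF, among 5.48%; all 40 members were then negative, with a median of -0.37.

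RMC-7977 against RMC-4550 gave 0 calls, against 0.0906% of all genes, with a median of -0.08 and 28 of 40 negative; 2 members had an unadjusted p under 0.05, both lower, against 4.34% of all genes lower. The median came to -0.18 without RMC-7977 replicate 3 and to -0.01 without its replicate 4 or RMC-4550 replicate 3. SPC24 was lower in all 4 RMC-7977 tumours than in any RMC-4550 tumour, as were 4.21% of all genes, with 12.4, 11.1, 14.1 and 10.7 CPM under RMC-7977 and 20.9, 17.3, 25.2 and 14.8 CPM under RMC-4550 (-0.70 ± 0.24, adjusted p = 0.367 by edgeR). SPC25, its partner in the complex, had -0.67 ± 0.31 (adjusted p = 0.653 by edgeR). DESeq2 called 0 members and 1.15% of all genes, and voom with library weights called SPC24, where it called 2.76% of all genes lower.

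RMC-4550 against Trametinib gave 0 calls, as for 0% of all genes, with 7 members at an unadjusted p under 0.05, all lower, against 8.42% of all genes lower, and a median of -0.24. That number was 0 without RMC-4550 replicate 4 (median -0.15) and 3 without Trametinib replicate 1 (median -0.10). AURKA, TOP2A and KIF2C did not overlap between these groups, all lower under RMC-4550, as were 1.72% of all genes. RMC-4550 against Cobimetinib gave 0 calls, against 0.0283% of all genes, with 4 members at an unadjusted p under 0.05, all lower, against 1.95% of all genes lower, and a median of -0.14. Here the number was 0 without RMC-4550 replicate 4 (median -0.05), 8 without replicate 3 (median -0.26) and 2 without Cobimetinib replicate 1 (median -0.15). CENPA passed as lower without the 4 libraries that stood apart, among 0.901% of all genes, and also with a GC correction added, among 0.991%. AURKA, CENPA and KIF2C did not overlap, again lower under RMC-4550, as were 3.90% of all genes, and the fold change of MKI67 was -0.89 ± 0.37 (adjusted p = 0.647 by edgeR). Trametinib against Cobimetinib, the comparison of the 2 MEK inhibitors, gave 0 calls, as for 0% of all genes, with 3 members at an unadjusted p under 0.05, against 16.7% of all genes, and a median of 0.09, which was 0.00 without Trametinib replicate 1; without its replicate 3 there were 7 such members (median 0.18), and without its replicate 4 or Cobimetinib replicate 1 there were 0. TOP2A and NUSAP1 were higher in all 4 Trametinib tumours, as were 2.56% of all genes. DESeq2 called 0 members in each of these 3 comparisons, and in the order given 1.01%, 0.785% and 1.02% of all genes. Voom with library weights called 17 members of RMC-4550 against Trametinib, where it called 21.1% of all genes, and 14 of Trametinib against Cobimetinib, where it called 37.4%. Of RMC-4550 against Cobimetinib it called 2, MKI67 and CENPA, both lower, where it called 1.25% of all genes lower.

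Other genes of the same machinery were counted from lists of textbook members. Under RMC-7977 0 of the 110 tested genes of these 8 lists passed by edgeR, against 0.748% of all genes. Voom with library weights called 17, all lower, where it called 7.04% of all genes lower. The 8 condensin genes, which compact chromosomes, were all negative with a median of -0.35, and NCAPH, a subunit of condensin I, had 15.3 ± 0.775 CPM in RMC-7977 tumours and 21.8 ± 4.94 CPM in Vehicle tumours (SD, n = 4 and 6; -0.51 ± 0.20, adjusted p = 0.333 by edgeR). Of 19 other inner kinetochore genes 17 were negative (median -0.23), and of 14 other outer kinetochore genes 9 (median -0.04). SKA3, which couples kinetochores to moving microtubule ends, had 10.3 ± 1.28 CPM in RMC-7977 tumours and 17.3 ± 5.70 CPM in Vehicle tumours (-0.75 ± 0.24, adjusted p = 0.163 by edgeR), and its groups overlapped. ZWINT, a KNL1-binding outer kinetochore protein, had -0.45 ± 0.16, with 3 of 4 tumours below all Vehicle tumours. Of 22 other spindle and cytokinesis genes 20 were negative (median -0.22), among them the motor KIFC1 at -0.48 ± 0.20. All 10 other genes of mitotic entry control were negative (median -0.25), among them CDC25A at -0.55 ± 0.24.

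Of 12 genes of cohesin, separase and shugoshin, 9 were negative under RMC-7977 (median -0.13), with CDCA5, the sororin that protects cohesin, at -0.78 ± 0.31. Of 15 other genes of the anaphase-promoting complex and its regulators, 8 were negative (median -0.03), with FBXO5, its inhibitor, at -0.58 ± 0.24. Of 10 genes of the DREAM and MYB-MuvB complexes 7 were negative (median -0.15), with MYBL2 at -0.49 ± 0.21. Under RMC-4550, Trametinib and Cobimetinib no gene of these 8 lists passed by edgeR, against 0.0283%, 0% and 0% of all genes. Voom with library weights called 1 of the 110 lower under RMC-4550, where it called 0.164% of all genes lower. Under Trametinib it called 35 higher and 19 lower, where it called 23.4% and 21.2% of all genes. Under Cobimetinib it called 1 higher and 1 lower, where it called 1.16% and 1.11% of all genes. The medians of the 8 lists ran from -0.23 to 0.09 under RMC-4550, from -0.16 to 0.16 under Trametinib and from -0.18 to 0.07 under Cobimetinib. GTSE1, a G2 and S-phase protein, had 32.7 ± 9.15 CPM in RMC-4550 tumours and 51.1 ± 6.48 CPM in Vehicle tumours, with all 4 treated tumours below all 6 (-0.64 ± 0.17, adjusted p = 0.496 by edgeR). How many of all genes were without overlap in that direction is not given here.

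Some genes outside mitosis passed by edgeR in the same tumours. Of 9 tested genes of MAPK output 6 fell under RMC-7977 (median -2.71), against 0.448% of all genes lower, and 1, DUSP6, fell under RMC-4550 (median -1.10), against 0.0113%. These calls were lost under the replicate block, where 0 of the 9 passed under either drug, and that of DUSP6 also without RMC-4550 replicate 1 or 3 or Vehicle replicate 5. No drug tumour shares a number with Vehicle replicates 5, 6 and 7. Under the block, only Vehicle replicates 1, 2 and 3 therefore bear on comparisons with Vehicle. No MAPK gene passed by edgeR with all tumours under Trametinib (median -1.43) or Cobimetinib (median -0.34), as for 0% of all genes. Without the 4 libraries that stood apart 7 passed under Trametinib, among 15.1% of all genes, and 1, DUSP6, under Cobimetinib. The share of all genes called under Cobimetinib in that setting is not given here. For RMC-7977, RMC-4550, Trametinib and Cobimetinib in turn, DESeq2 called 7, 4, 6 and 0 lower. It called 3.12%, 0.203%, 2.15% and 0.00581% of all genes. Voom with library weights called 8, 7, 8 and 4 lower, against 7.04%, 0.164%, 21.2% and 1.11% of all genes lower. Of 13 genes of origin licensing and S phase 2 fell under RMC-7977, RRM2 and MCM10, against 0.448% of all genes lower, with a median of -0.32 over the 13. MCM10, which helps start replication forks, had 12.6 ± 2.06 CPM in RMC-7977 tumours and 27.6 ± 9.84 CPM in Vehicle tumours (SD; -1.14 ± 0.24, adjusted p = 0.0234 by edgeR). RRM2, a subunit of the enzyme that makes deoxyribonucleotides, had -0.94 ± 0.20 (adjusted p = 0.0223 by edgeR), and for both genes all 4 treated tumours lay below all 6 Vehicle tumours. The share of all genes without overlap in that direction is not given here. Neither gene passed under the replicate block, in a fit to the 2 groups alone, or without RMC-7977 replicate 1, 2 or 4 or Vehicle replicate 5, and MCM10 did not pass without RMC-7977 replicate 3. The lowest value among the 40 mitosis genes in that comparison was the -0.66 of SPC24.

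Marker lists of cell types were checked as sums of CPM, lowest to highest tumour. The counts are of human genes, and the sources used here do not give what was done with host reads. A sum therefore cannot be read as a number of cells of that type in the xenograft. The 8 epithelial markers summed to between 3938 and 5982 CPM in RMC-7977 tumours and to between 3047 and 4516 CPM in RMC-4550 tumours. With Trametinib the sum was 3879 to 4846 CPM, with Cobimetinib 3348 to 4263 CPM and with Vehicle 4569 to 5667 CPM. RMC-4550 and Cobimetinib tumours thus lay below all Vehicle tumours. The part of this sum in the values of the mitosis genes was not tested. KRT7, KRT8 and KRT19 had medians of 1383, 1264 and 813 CPM over all tumours, and NKX2-1 and NAPSA 2.88 and 1.14 CPM. The 8 myeloid markers summed to 6.20 to 10.4 CPM under RMC-7977, against 11.5 to 26.9 CPM under Vehicle. The difference of these sums and its part in the values of the mitosis genes were not tested. Over all tumours CD14, LAPTM5 and CSF1R had medians of 9.28, 2.81 and 2.38 CPM. PTPRC, FCER1G, CD68, TYROBP and AIF1 had medians of 0.132, 0.0720, 0, 0 and 0 CPM, so the sum does not follow the whole list. The 6 fibroblast markers summed to 91.4 to 213 CPM under RMC-7977, against 21.1 to 305 CPM under Vehicle. Here COL1A1 had a median of 179 CPM over all tumours, and COL1A2, DCN and LUM a median of 0. The 6 endothelial markers summed to 18.8 to 77.7 CPM under RMC-7977, against 40.3 to 198 CPM under Vehicle. CLDN5 and PECAM1 had medians of 40.9 and 25.4 CPM over all tumours. VWF, CDH5, TEK and KDR had medians of 1.14, 0.706, 0.402 and 0.0340 CPM, so this sum does not follow the whole list either. The 5 lymphocyte markers reached a sum of at most 4.96 CPM in any tumour, with MS4A1 at 0 throughout, and the 3 red cell markers at most 0.232 CPM, with HBB at 0.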

How the data were processed

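The authors deposited raw read counts per gene, whole numbers in 1 column per tumour, for 58735 genes. The submitters' processing notes name HISAT2 (2.0.5), fastp, featureCounts (1.5.0-p3), edgeR (3.22.5), DESeq2 (1.20.0) and the build hg38. The sources used here do not give the strand setting, how reads that map to several places were counted or what was done with host reads. All 58735 genes lay at the same positions in GENCODE 29, which gave exon overlap and GC content. Members, roles and gene lists were chosen with earlier results of these data known.

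Counts were analysed in R (4.3.3). The filter on low counts of edgeR (4.0.16, minimum 10, 5 groups) left 17652 genes with 99.718% of the counts. Libraries were scaled by TMM, and 1 robust quasi-likelihood model with 1 mean per group was fitted to all 22 tumours. All 10 pairs of groups, and the 4 inhibitors together against Vehicle, were compared by 2-sided tests, adjusted by Benjamini-Hochberg over all genes tested, with a threshold of 0.05. CPM used TMM sizes; 2 was the prior count for log2 CPM. Intervals cover 95%. The biological coefficient of variation was 0.3684. The pipeline was checked on simulated counts. Named were members past the threshold, the 3 with the smallest p for each drug against Vehicle, and CDK1, CCNB1, PLK1, AURKA, AURKB, TOP2A, MKI67 and FOXM1; further genes named in comparisons between drugs or under alternatives were chosen after their values were seen.

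Alternatives were DESeq2 (1.42.0), voom with library weights (limma 3.58.1), a GC correction, the replicate number as a block, RLE scaling, other filters (none, or an average of 1 CPM or more), a fit to the 2 groups alone, leaving out each tumour in turn, and leaving out 2 or 4 libraries that stood apart; leaving out 4 with the GC correction was added after the results were seen. Where tumours shared a replicate number, their deviations from the group means correlated over 0.1 in all 3 pairs of RMC-4550 with Vehicle (0.1704 to 0.7109) and of Trametinib with Vehicle (0.1362 to 0.2021), but not in all pairs of any other groups. Vehicle replicates 5, 6 and 7 share their number with no drug tumour. Under the block, comparisons with Vehicle therefore rest on its replicates 1, 2 and 3. Promoter windows were RefSeq's (GRCh38.p14). No tumour was left out of the results given first, and no 2 libraries of a group agreed within sampling noise.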

Additional observations from a re-analysis of the deposited data

Results flagged for a closer look

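Log2 CPM of 15 named genes, and the mean over the 40, were examined in 5 groups, and in 6 of these 80 combinations there was a tumour far from the others of its group, where chance gives about 1 in 20. In Trametinib replicate 4, PLK1 was at 4.33 with the nearest tumour at 5.73, and MKI67 at 6.58 with the nearest at 9.06. In Vehicle replicate 1, FOXM1 was at 4.55 with the nearest at 6.20, and CDC25B at 5.28 with the nearest at 6.42. These 4 lie in libraries that stood apart. In Cobimetinib replicate 3, MKI67 was at 8.92 with the nearest tumour at 9.27, still above every Vehicle tumour. In RMC-4550 replicate 3, AURKB was at 5.53 with the nearest at 5.07.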

How the results depend on the processing

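By edgeR with all tumours 0 members passed in any of the 11 comparisons. That count was also 0 under RLE scaling, the other filters, the replicate block, the GC correction with or without it, and without 2 libraries, and under the fit to only the 2 groups compared in the 10 comparisons it covers. DESeq2 gave 1 for RMC-7977 against Trametinib. Voom with library weights gave 8, 21 and 1 for RMC-7977, Trametinib and Cobimetinib against Vehicle, 1, 25 and 7 for RMC-7977 against RMC-4550, Trametinib and Cobimetinib, 17 and 2 for RMC-4550 against Trametinib and Cobimetinib, 14 for Trametinib against Cobimetinib and 2 for the 4 inhibitors together. Leaving out each tumour gave 0 except without Trametinib replicate 3, where RMC-7977 against Trametinib gave 2 (range 0 to 2), among 7.07% of all genes. Without the 4 libraries the counts were 1 and 6 for RMC-7977 and Trametinib against Vehicle, 9 and 2 for RMC-7977 against Trametinib and Cobimetinib, and 1 for RMC-4550 against Cobimetinib; with the GC correction as well they were 3, 0, 3, 5 and 1 in the same order. The cause of these differences was not tested.

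Leaving out each tumour moved the median log2 fold change against Vehicle between -0.37 (without RMC-7977 replicate 3) and -0.13 (without Vehicle replicate 1) for RMC-7977, -0.28 and -0.07 for RMC-4550, -0.01 and 0.26 for Trametinib, and -0.07 and 0.12 for Cobimetinib. Under the replicate block, in which only Vehicle replicates 1, 2 and 3 bear on these values, these medians were -0.13, -0.07, 0.22 and 0.09. The block changed no call of a member, but the genes called among all tested dropped to 2 under RMC-7977 (132 without the block) and to 0 under RMC-4550 (5 without it), and no MAPK or S phase gene passed. With the GC correction and the block together, CDC25B and FOXM1 under Trametinib turned to 0.02 and 0.18. Against Vehicle 31 of 40 Trametinib intervals lay within a log2 change of 1 either way, against 35 to 38 for the other drugs. For the remaining members the interval reached beyond that. The share over all genes was 46.2% under Trametinib and 53.4% to 59.3% under the other drugs. The fold changes of the 40 members had an SD of 0.27 under Trametinib and 0.17 to 0.21 under the other drugs. Depth was lowest in Trametinib replicate 4, and its part in these counts was not tested.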
